A study of Mus musculus with 24 samples.

Results

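The 9 genes described here code for enzymes of branched-chain amino acid and propionate oxidation, and were chosen by symbol as named steps of that pathway. All 9 had a row among the 22355 genes of a liver RNA-seq count table, and all 9 passed the filter on low counts that kept 11508 genes. The table held 24 livers of diet-induced obese mice, 8 mice in each of 3 groups. The first group had received IUB288, a glucagon receptor agonist, for 4 d, with livers collected 4 h after its final injection. The second had received IUB288 for 4 d, with livers collected 22 h after it. The third had received vehicle for 4 d, with livers also collected 22 h after the final injection. There were no vehicle livers at 4 h, so that at 4 h IUB288 and the time since the injection, with the time of day that goes with it, cannot be told apart. The sources used here do not give strain, sex, age or dose.

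Leucine, isoleucine and valine lose their amino group to a transaminase, and the keto acids that remain are committed to oxidation by the branched-chain keto acid dehydrogenase complex in mitochondria. The complex is built from a decarboxylase of alpha and beta subunits (Bckdha, Bckdhb), a transacylase core (Dbt) and a dihydrolipoamide dehydrogenase (Dld) that it shares with other dehydrogenase complexes. A kinase (Bckdk) phosphorylates and inhibits the decarboxylase, and a phosphatase (Ppm1k) removes the phosphate. Liver is known for little of the mitochondrial transaminase Bcat2 and much of the dehydrogenase, so that it oxidises keto acids released by muscle and fat. Further down, Hibch and Aldh6a1 act in valine breakdown, and propionyl-CoA from valine and isoleucine is carboxylated by an enzyme whose alpha subunit is Pcca.

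Library totals ran from 24.7 to 35.2 M counts at 4 h, from 25.8 to 35.2 M at 22 h and from 13.99 to 44.1 M in vehicle livers. Hepatocyte markers summed to between 74208 and 99354 CPM (a gene's counts relative to its library's total, with TMM scaling) at 4 h, between 68586 and 93098 CPM at 22 h, and between 88485 and 118080 CPM in vehicle replicates 2 to 8. In vehicle replicate 1 they summed to 74465 CPM. Vehicle replicate 1 stood apart. Its summed markers of brown and white adipose tissue, 14 of 15 in the table, reached 4900.2 CPM, against 67.5 to 161 CPM at 4 h, 66.7 to 124 CPM at 22 h and 187 to 302 CPM in the other 7 vehicle livers. Ucp1, the uncoupling protein of brown fat, stood at 1388 CPM in it and at no more than 0.576 CPM in the other vehicle livers. Its 12 muscle markers summed to 197 CPM, where no other liver exceeded 0.961 CPM, and Ckm and Myh6 were at 0 counts in all 23 others. Counts of genes called are therefore given with all 24 libraries and again without vehicle replicate 1. Single genes whose fold changes are given below are shown both ways where that library changes the call against vehicle. Other tested genes whose call it changes enter the counts only. Without that library, 6 of 9 stellate and fibroblast markers were lower at 4 h and 8 of 9 at 22 h (limma-voom), with sums of 404 to 696 CPM at 4 h, 223 to 667 CPM at 22 h and 741 to 1088 CPM in vehicle livers. Endothelial markers were lower for 4 of 8 at 4 h and 8 of 8 at 22 h, with sums of 305 to 363, 134 to 342 and 302 to 510 CPM, and Kupffer cell and macrophage markers for 1 of 7 and 4 of 7, with sums of 198 to 387, 77.4 to 410.4 and 227 to 835 CPM. Lymphocyte markers were lower for 2 of 8 and 3 of 8 and cholangiocyte markers for 2 of 6 each time, and hepatocyte markers were higher for 3 and 4 of 9 and lower for 5 and 4. Of the 7 adipose markers tested, 5 were lower and 1 was higher at each time. The 5 pancreas markers in the table summed to at most 0.447 CPM. Their part in the results below was not tested. In bulk liver, fewer cells of a type and less RNA per cell cannot be told apart.

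Promoters are shown for 4 genes whose levels differed between groups, since these are the windows in which motifs were searched. Each runs from 250 bases before to 50 after a start site, 5′ to 3′ on the gene's strand, and comes from RefSeq on GRCm38.p6. Capitals mark motif matches on either strand. Bcat2 lies on chromosome 7 with its window at chr7:45569903-45570202 (plus strand), Bckdha at chr7:25658712-25659011 (minus strand) and Bckdk at chr7:127903823-127904122 (plus strand). The Pcca window is that of its start 2, at chr14:122534078-122534377 (plus strand). The window of Pcca start 1, at chr14:122484115-122484414, held none of the motifs searched and is not shown.
Bcat2: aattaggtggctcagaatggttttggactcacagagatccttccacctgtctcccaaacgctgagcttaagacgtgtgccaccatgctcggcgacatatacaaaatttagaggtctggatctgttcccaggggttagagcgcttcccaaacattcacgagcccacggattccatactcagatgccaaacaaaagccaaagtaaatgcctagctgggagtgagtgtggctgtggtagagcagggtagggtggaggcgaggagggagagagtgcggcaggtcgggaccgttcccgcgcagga
Bckdha: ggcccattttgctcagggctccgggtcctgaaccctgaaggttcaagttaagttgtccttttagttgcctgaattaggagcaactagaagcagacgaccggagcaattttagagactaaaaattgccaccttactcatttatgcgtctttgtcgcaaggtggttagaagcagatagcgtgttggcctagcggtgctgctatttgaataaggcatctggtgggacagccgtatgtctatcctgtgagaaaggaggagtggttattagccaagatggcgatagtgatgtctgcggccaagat
Bckdk: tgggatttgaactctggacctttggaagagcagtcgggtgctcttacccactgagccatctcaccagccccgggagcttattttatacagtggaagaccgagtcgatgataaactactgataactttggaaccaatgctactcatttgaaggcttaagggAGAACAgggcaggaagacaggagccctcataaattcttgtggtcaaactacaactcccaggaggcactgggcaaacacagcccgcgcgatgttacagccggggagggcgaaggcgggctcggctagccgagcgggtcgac
Pcca: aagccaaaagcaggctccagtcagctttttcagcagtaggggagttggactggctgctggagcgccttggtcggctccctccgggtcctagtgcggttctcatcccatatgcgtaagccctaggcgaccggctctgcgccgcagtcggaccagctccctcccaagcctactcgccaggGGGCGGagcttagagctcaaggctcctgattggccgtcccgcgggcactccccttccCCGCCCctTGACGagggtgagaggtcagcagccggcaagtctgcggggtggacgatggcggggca
The table of promoters held 12 windows for 8 of the 9 genes and none for Dbt, so the motif search does not cover Dbt. The full cAMP response element TGACGTCA was in 0 of the 12, against 1.79% of all 32851 promoters of the same length. Its core TGACG, which is also part of the full element, was in 2, those of Pcca start 2 and Dld, against 20.8% of all promoters. The glucocorticoid receptor motif AGAACA was in 3, those of Bckdk, Bckdhb and Aldh6a1, against 19% of all promoters, and the Bckdk match lies 90 bases before the start. The GC box GGGCGG was in 3, those of Pcca start 2, Hibch and Bckdhb, against 35.7% of all promoters. The nuclear receptor motif AAGGTCA and the C/EBP palindrome TTGCGCAA were in 0 of 12, against 4.72% and 0.183% of all promoters. Matches are descriptions of these letters only, and the windows of Bcat2 and Bckdha held none of the 6 motifs.

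On GRCm38.p6 in RefSeq, Bcat2 (Entrez 12036) lies at chr7:45568967-45589710, Bckdha (12039) at chr7:25629852-25658782, Bckdhb (12040) at chr9:83925111-84124240 and Dbt (13171) at chr3:116513070-116549981. Dld (13382) lies at chr12:31331562-31351471, Bckdk (12041) at chr7:127904073-127909664, Hibch (227095) at chr1:52845038-52920986, Aldh6a1 (104776) at chr12:84430717-84451024 and Pcca (110821) at chr14:122484365-122889944. Counts cover whole genes, so that exons and isoforms cannot be told apart. Levels between genes were compared as CPM per kb of the longest principal transcript. Aldh6a1, the dehydrogenase that turns methylmalonate semialdehyde into propionyl-CoA, was the highest of the 9, at 239 ± 29.8 CPM per kb at 4 h, 238 ± 17.1 at 22 h and 232 ± 26.9 in vehicle livers (SD, n = 8 each). Dld followed, at 145 ± 5.90, 126 ± 7.95 and 132 ± 29.3 CPM per kb in the 4 h, 22 h and vehicle livers. Bckdha, Hibch and Bckdhb lay close together in vehicle livers, at 74.98 ± 13.2, 74.4 ± 8.92 and 69.6 ± 4.86 CPM per kb, within their spread. Pcca and Dbt came next in vehicle livers, at 49.6 ± 8.51 and 44.4 ± 5.58 CPM per kb, and also lay within their spread. With IUB288 the Dbt level was 70.4 ± 15.2 CPM per kb at 4 h and 79.8 ± 8.50 at 22 h, in the range of Bckdha, Hibch and Bckdhb. Bcat2 was far lower, at 12.9 ± 3.19 CPM per kb at 4 h, 25.9 ± 4.25 at 22 h and 17.1 ± 1.61 in vehicle livers. Bckdk was the lowest, at 3.01 ± 0.32, 4.43 ± 0.40 and 4.93 ± 3.29 CPM per kb in the same order of groups.

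At 4 h after IUB288, 3 of the 9 genes were higher than in vehicle livers (Dbt, Pcca and Bckdha), 2 were lower (Bckdk and Bcat2) and 4 were not called (limma-voom, Benjamini-Hochberg adjusted p under 0.05 over all genes tested). At 22 h, 4 were higher (Dbt, Bcat2, Bckdha and Pcca), 0 were lower and 5 were not called. Between 22 h and 4 h livers, Bcat2 alone was called, as higher at 22 h. Over all 11508 genes 44.2% were called at 4 h (21.7% higher, 22.5% lower), 36.8% at 22 h (17.6% higher, 19.2% lower) and 29.3% between 22 h and 4 h (14.3% higher, 15% lower). The median log2 fold change of the 9 was 0.04 at 4 h, 0.04 at 22 h and 0.04 for 22 h against 4 h, beside -0.07, -0.02 and -0.02 over all genes tested. Without vehicle replicate 1 the counts were 4 higher and 2 lower at 4 h, 5 higher and 0 lower at 22 h, and 2 higher and 1 lower at 22 h against 4 h, with 44%, 36.6% and 32.1% of all 11614 genes called (22.3%, 17.8% and 15.2% higher, 21.7%, 18.8% and 16.9% lower). The median of the 9 was then 0.03, 0.24 and 0.04. Both comparisons with vehicle use the same vehicle livers, so the 22 h against 4 h comparison is the test of a difference between them.

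**Figure D1:**
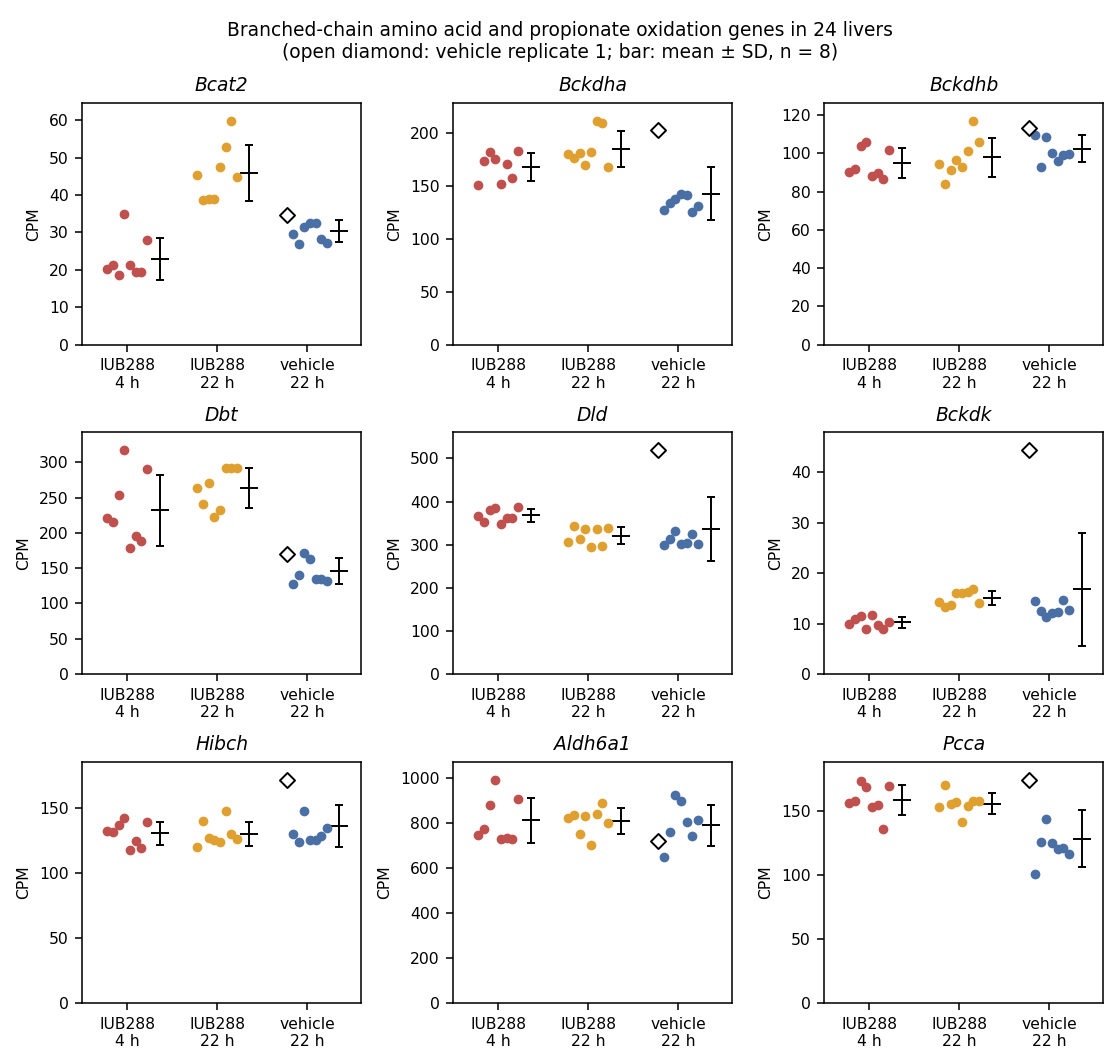
CPM of each of the 9 genes in every liver, with IUB288 4 h, IUB288 22 h and vehicle from left to right (8 livers each, bars are mean ± SD). The 22 h livers lie above all others for Bcat2, the IUB288 livers lie above the vehicle livers for Dbt, and vehicle replicate 1, the open diamond, lies far above the other vehicle livers for Bckdk (44.3 CPM) and Dld (519 CPM).

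Bcat2, the mitochondrial transaminase that opens the pathway, moved in opposite directions at the 2 times. Its lowest, median and highest levels were 18.5, 20.7 and 34.9 CPM at 4 h, 38.8, 45.2 and 59.8 CPM at 22 h, and 27.0, 30.5 and 34.8 CPM in vehicle livers. Every 22 h liver lay above every other liver, while the 4 h livers overlapped the vehicle livers through replicates 4 and 8, at 34.9 and 27.9 CPM, and the other 6 stayed at or under 21.2 CPM. The log2 fold change was -0.46 ± 0.12 (SE) at 4 h (limma-voom adjusted p = 0.00222, 7 of 8 livers under the vehicle mean) and 0.57 ± 0.11 at 22 h (adjusted p = 2.01e-04, 8 of 8 above it). Set against 4 h, Bcat2 at 22 h was 2.04-fold higher (log2 1.03 ± 0.11, limma-voom adjusted p = 7.79e-08). It was 1 of 2 genes of the 9 whose 22 h and vehicle livers did not overlap, beside Dbt, where 7.41% of all genes did not overlap. Without vehicle replicate 1 the values were -0.43, 0.60 and 1.03, with limma-voom adjusted p of 0.00515, 1.63e-04 and 6.25e-08. An antisense gene on the other strand, 0610005C13Rik, shares 622 exonic bases with Bcat2 and was not analysed here.

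Dbt, the transacylase core of the complex, had the largest change of the 9 against vehicle at both times. It ranged from 178 to 317 CPM at 4 h with a median of 218, from 223 to 292 CPM at 22 h with a median of 267, and from 128 to 171 CPM in vehicle livers with a median of 137. No IUB288 liver was as low as the highest vehicle liver. Dbt rose by 0.65 ± 0.10 on the log2 scale at 4 h (limma-voom adjusted p = 1.66e-05) and by 0.85 ± 0.11 at 22 h (adjusted p = 1.03e-06), that is 1.57-fold and 1.80-fold, with 8 of 8 livers above the vehicle mean each time. It was the only one of the 9 genes whose 4 h and vehicle livers did not overlap, where 16.1% of all genes did not. Between 22 h and 4 h the log2 difference was 0.20, with a 95% confidence interval of -0.02 to 0.42 (limma-voom adjusted p = 0.165). It reached 0.27 (limma-voom adjusted p = 0.0393) when 4 h replicate 4, the liver with 317 CPM, was left out.

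Bckdha, the alpha subunit of the decarboxylase that carries the regulatory phosphate, changed less. Its levels were 151, 172 and 183 CPM (lowest, median, highest) at 4 h, 167, 180.4 and 211 CPM at 22 h, and 125, 135 and 203 CPM in vehicle livers. The highest vehicle value was that of replicate 1, and the next highest vehicle liver was at 142 CPM, under every IUB288 liver. The log2 fold change was 0.25 ± 0.08 at 4 h (limma-voom adjusted p = 0.0121) and 0.39 ± 0.08 at 22 h (adjusted p = 5.21e-04), with 8 of 8 livers above the vehicle mean in both. Without vehicle replicate 1 these became 0.32 ± 0.06 and 0.46 ± 0.06 (limma-voom adjusted p = 6.14e-05 and 1.40e-06). B3gnt8, a gene on the opposite strand, shares 1171 exonic bases with Bckdha, 61.7% of its exonic length, and the sources used here do not give the strand setting of the counting. The beta subunit Bckdhb was not called in any comparison with TMM scaling and all libraries. It averaged 94.8 ± 7.79 CPM at 4 h, 98.0 ± 10.1 CPM at 22 h and 102 ± 7.15 CPM in vehicle livers (SD, n = 8), with log2 fold changes of -0.11 at 4 h (95% confidence interval -0.24 to 0.02) and -0.07 at 22 h (-0.20 to 0.06). Scaled by library totals alone it was called lower at 4 h (-0.17, limma-voom adjusted p = 0.0145), where that scaling moved the median of all genes to -0.13, against -0.07 with TMM.

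Dld, the shared dehydrogenase, depended on vehicle replicate 1. Its levels were 348, 364 and 388 CPM (lowest, median, highest) at 4 h, 295, 324 and 343 CPM at 22 h, and 298, 309 and 519 CPM in vehicle livers. The 519 CPM was that of replicate 1, and the other 7 vehicle livers lay between 298 and 331 CPM, under every 4 h liver. With all libraries Dld was not called at 4 h (log2 0.16, limma-voom adjusted p = 0.121) or at 22 h (-0.05, adjusted p = 0.691). Without vehicle replicate 1 it was higher at 4 h by 0.24 ± 0.04 (limma-voom adjusted p = 7.72e-05) and not called at 22 h (0.04, 95% confidence interval -0.05 to 0.14). The 22 h livers all lay under the 4 h livers, by 0.20 on the log2 scale, which was not called with all libraries (limma-voom adjusted p = 0.0631) and was called without vehicle replicate 1 (adjusted p = 7.05e-04), whose spread enters the error of every comparison. Between 22 h and 4 h livers Dld was thus 1 of 3 of the 9 genes without overlap, beside Bcat2 and Bckdk, where 10.7% of all genes had none.

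**Figure D2:**
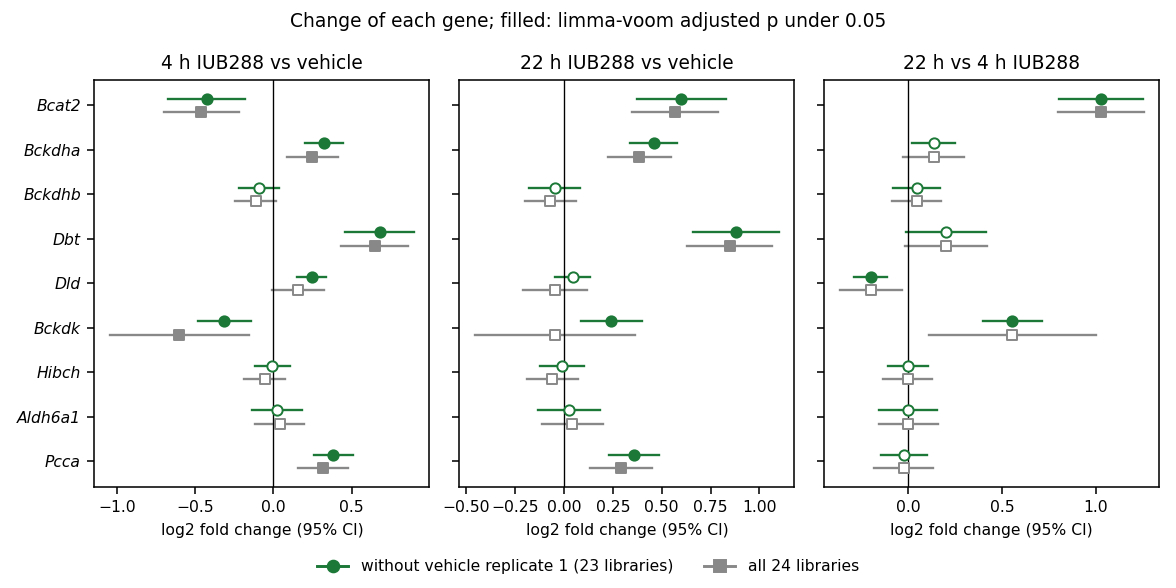
Log2 fold change of each gene with its 95% confidence interval, in 4 h IUB288 against vehicle, 22 h IUB288 against vehicle and 22 h against 4 h IUB288, without vehicle replicate 1 (circles) and with all 24 libraries (squares); filled symbols passed the limma-voom threshold. Bcat2 lies left of 0 at 4 h and right of 0 at 22 h, and the intervals of Bckdk and Dld narrow without vehicle replicate 1.

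Bckdk, the kinase that inhibits the complex, was lower at 4 h than in vehicle livers. Its lowest, median and highest levels were 8.86, 10.1 and 11.7 CPM at 4 h, 13.3, 15.1 and 16.9 CPM at 22 h, and 11.3, 12.6 and 44.3 CPM in vehicle livers. The 44.3 CPM belonged to vehicle replicate 1, 3.45 times the mean of the other 7, which lay between 11.3 and 14.7 CPM. With all libraries the log2 fold change was -0.60 ± 0.22 at 4 h (limma-voom adjusted p = 0.0266) and -0.05 ± 0.20 at 22 h (adjusted p = 0.881). Without that library it was -0.31 ± 0.08 at 4 h (limma-voom adjusted p = 0.00293, 8 of 8 livers under the vehicle mean) and 0.24 ± 0.08 at 22 h (adjusted p = 0.0146, 8 of 8 above it), so that the 22 h change turned from under 0 to over 0. The 4 h call was lost when the 16 libraries of that comparison were fitted alone (-0.61, limma-voom adjusted p = 0.0563), in replicates 1 to 4 (-0.88, adjusted p = 0.105) and in replicates 5 to 8 (-0.32, adjusted p = 0.0537), all of them with the same sign. Every 22 h liver lay above every 4 h liver, by 0.55 on the log2 scale, and limma-voom gave an adjusted p of 0.0557 with all libraries and of 2.72e-06 with vehicle replicate 1 left out. The counts behind these levels were low for the set, between 204 and 543 reads per library outside vehicle replicate 1.

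The phosphatase Ppm1k, which activates the complex, was not called in any comparison. It ranged from 159 to 263 CPM at 4 h, from 155 to 279 CPM at 22 h and from 106 to 257 CPM in vehicle livers, and these ranges overlapped widely. Bckdk counts as a share of Ppm1k counts had medians of 5.45% at 4 h (3.36% to 7.36%), 7.01% at 22 h (4.77% to 10.4%) and 6.90% in vehicle livers (4.71% to 28.4%). The share rests on counts without regard to transcript length. The difference in mean log2 share was -0.67 at 4 h against vehicle (exact permutation test, two-sided, p = 0.0539, adjusted over the 3 comparisons 0.0809), -0.23 at 22 h against vehicle (exact permutation p = 0.551, adjusted 0.551) and 0.44 at 22 h against 4 h (exact permutation p = 0.0295, adjusted 0.0809). None passed after adjustment. Without vehicle replicate 1 the difference was -0.41 at 4 h and 0.03 at 22 h (exact permutation adjusted p = 0.154 and 0.914). Leaving out vehicle replicate 5 or 6 brought the 4 h difference to -0.78 or -0.77, past the threshold (exact permutation adjusted p = 0.0443 for each), as did leaving out 4 h replicate 5 (0.51, exact permutation adjusted p = 0.0392) or 22 h replicate 2 (0.52, adjusted p = 0.0280) for 22 h against 4 h.

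**Figure D3:**
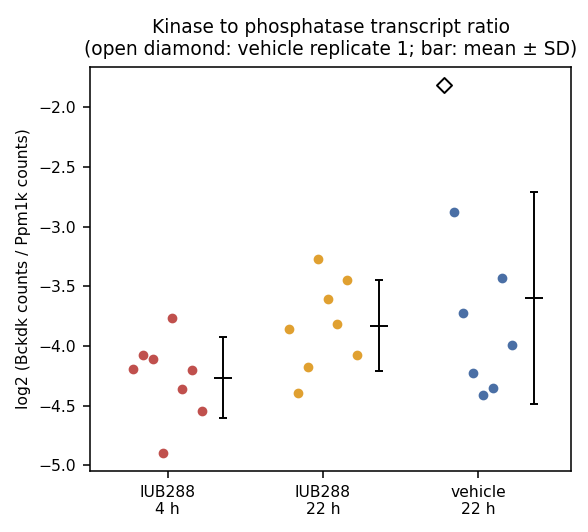
Log2 of Bckdk counts over Ppm1k counts in each liver, with IUB288 4 h, IUB288 22 h and vehicle from left to right (bars are mean ± SD, n = 8). The groups overlap, and vehicle replicate 1, the open diamond, is the highest liver, where Bckdk counts were 28.4% of Ppm1k counts.

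In the valine branch, neither Hibch nor Aldh6a1 was called in any comparison. Hibch, the hydrolase that frees hydroxyisobutyrate from coenzyme A, averaged 130.4 ± 9.09 CPM at 4 h, 130.1 ± 9.31 CPM at 22 h and 136 ± 16.3 CPM in vehicle livers (SD, n = 8). Its log2 fold change was -0.06 at both times, with 95% confidence intervals of -0.19 to 0.07 at 4 h and -0.19 to 0.07 at 22 h. Aldh6a1 averaged 811 ± 101 CPM at 4 h, 808 ± 58.2 CPM at 22 h and 789 ± 91.3 CPM in vehicle livers, with log2 fold changes of 0.04 and 0.04 (95% confidence intervals -0.11 to 0.20 and -0.11 to 0.20). Bbof1 on the opposite strand shares 1078 exonic bases with Aldh6a1 and was not analysed here. The intervals leave room for changes of up to about 0.2 on the log2 scale in either gene.

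Pcca, the biotin-carrying subunit of propionyl-CoA carboxylase, was higher at both times. It ranged from 136 to 173 CPM at 4 h (median 157), from 141 to 170.5 CPM at 22 h (median 156) and from 100.5 to 174 CPM in vehicle livers (median 123). Vehicle replicate 1 was the highest of all 24 at 174 CPM, and the next vehicle liver, replicate 4, stood at 144 CPM, above 1 liver of each IUB288 group. The log2 fold change was 0.32 ± 0.08 at 4 h (limma-voom adjusted p = 0.00154) and 0.29 ± 0.08 at 22 h (adjusted p = 0.00423), with 8 of 8 livers above the vehicle mean at both times. The 22 h livers differed from the 4 h livers by -0.02, with a 95% confidence interval of -0.18 to 0.13. Ggact on the opposite strand shares 241 exonic bases with Pcca, 4.63% of its exonic length.

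Vehicle replicate 1 lay above all other vehicle livers for 7 of the 9 genes, the exceptions being Dbt and Aldh6a1. It stood at 3.45 times the mean of the other 7 for Bckdk, 1.67 times for Dld, 1.51 times for Bckdha, 1.43 times for Pcca and 1.31 times for Hibch. For Bcat2 and Bckdhb it was 1.17 and 1.12 times that mean. The adipose and muscle markers given above moved with these values, and their part in them was not tested.

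**Figure D4:**
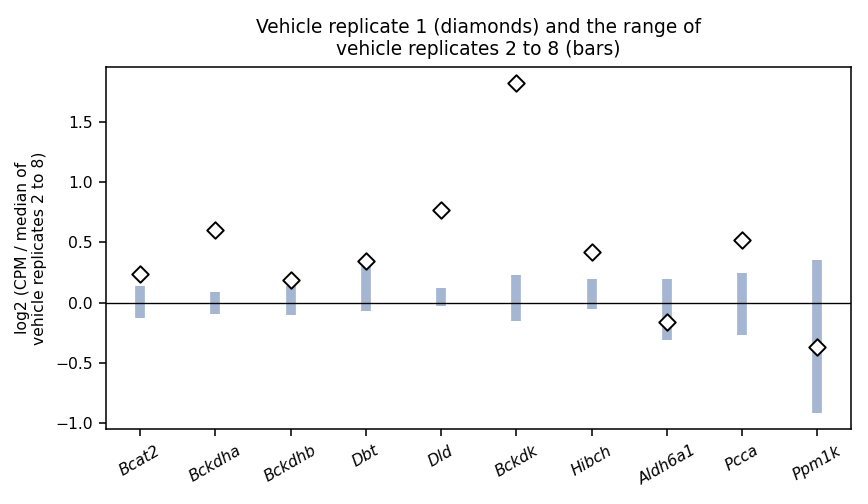
Level of each gene in vehicle replicate 1 (diamonds) and the range over vehicle replicates 2 to 8 (bars), both as log2 of CPM over the median of vehicle replicates 2 to 8. Bckdk, Dld, Bckdha, Pcca, Hibch, Bcat2 and Bckdhb lie above the bars. In that order they stood at 3.45, 1.67, 1.51, 1.43, 1.31, 1.17 and 1.12 times the mean, not the median, of the other 7 livers.

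Among the 4 h livers, replicates 4 and 8 were the 2 highest for 5 of the 9 genes (Bcat2, Dbt, Dld, Hibch and Aldh6a1), while Bckdk was at its lowest, 8.86 CPM, in replicate 4. The same 2 livers had the lowest summed adipose markers at 4 h, 67.5 and 86.0 CPM against 123 to 161 CPM in the other 6, and the lowest stellate and fibroblast markers, 404 and 498 CPM against 564 to 696 CPM. They also had the lowest TMM factors at 4 h, 0.930 and 0.897 against 0.941 to 1.04. A lower factor raises the CPM of every gene in its library, and its part was not tested. Among the 22 h livers, replicates 6 and 7 were the 2 highest for 4 of the 9 (Bcat2, Bckdha, Bckdk and Aldh6a1). Their TMM factors were the lowest at 22 h, 0.930 and 0.951 against 0.991 to 1.06 in the other 6. These 2 livers had summed endothelial markers of 142 and 134 CPM against 226 to 342 CPM in the other 6, and stellate and fibroblast markers of 226 and 223 CPM against 407 to 667 CPM. Without both, the 22 h log2 fold changes were 0.46 for Bcat2, 0.31 for Bckdha, 0.79 for Dbt and 0.29 for Pcca, and all 4 stayed called (limma-voom adjusted p of 0.00142, 0.00385, 1.52e-05 and 0.0118), an alternative chosen after seeing the data. Within groups and without vehicle replicate 1, over 23 libraries that share depth and scaling, Pearson's r was 0.799 between Dbt and Aldh6a1, 0.693 between Dbt and Bcat2 and 0.599 between Dbt and Bckdha. For Bckdk it was -0.274 with Dbt and -0.045 with Bcat2. These correlations are descriptions.

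The genes most like the members over livers were sought among those with a mean of at least 5 CPM. For Dbt they were Hpd, a dioxygenase of tyrosine breakdown (Pearson's r 0.964 over 24 libraries), Gnmt, the glycine N-methyltransferase (0.96), and Serpina1d, a serine protease inhibitor gene of a multigene family in which reads can be shared (0.957). Without vehicle replicate 1 Hpd and Gnmt were still the closest, and Hnf4a, a hepatocyte transcription factor, was the third (0.973, 0.971 and 0.965 over 23 libraries). For Bckdk they were Pald1 (0.873), Slc19a1 (0.869) and Dolk (0.869) over 24 libraries, and Pald1 stood at 43.4 CPM in vehicle replicate 1 against a mean of 9.30 CPM in the other 7 vehicle livers. Over 23 libraries without it they were instead Cdk10 (0.903), Zfp207 (0.889) and Foxp2 (0.886). For Bcat2, added after its values were seen, they were Crebzf (0.932), Ell (0.922) and R3hdml (0.921) over 24 libraries. Crebzf, which codes for a leucine zipper factor, averaged 45.9 CPM at 4 h, 84.5 CPM at 22 h and 55.8 CPM in vehicle livers 2 to 8.

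Other genes of branched-chain and propionate breakdown, its cofactors and its transporters numbered 41, of which 24 had a row and 23 passed the filter. The other 17 were not analysed here. At 4 h 7 were higher, 7 lower and 9 not called, at 22 h 4, 7 and 12, and for 22 h against 4 h 2, 5 and 16. The called shares, 60.9%, 47.8% and 30.4%, stand beside 44.2%, 36.8% and 29.3% of all genes, and the medians were -0.01, 0.03 and 0.00 on the log2 scale. With vehicle replicate 1 left out, 8 were higher and 6 lower at 4 h, 6 and 7 at 22 h, and 2 and 5 for 22 h against 4 h, and the medians were 0.08, 0.02 and 0.00. The called shares were then 60.9%, 56.5% and 30.4%, beside 44%, 36.6% and 32.1% of all genes.

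Slc3a2, the heavy chain that carries the large neutral amino acid exchangers to the membrane, was the furthest changed of these genes at 4 h. It averaged 104 ± 13.5 CPM at 4 h, 43.3 ± 9.25 CPM at 22 h and 31.9 ± 3.67 CPM in vehicle livers, a log2 fold change of 1.71 at 4 h (limma-voom adjusted p = 6.84e-12) and 0.42 at 22 h (adjusted p = 0.00578), and it was 1.29 log2 units lower at 22 h than at 4 h (log2 -1.29, adjusted p = 1.14e-09). Slc25a44, a mitochondrial carrier of branched-chain amino acids, was higher at 4 h (0.26, limma-voom adjusted p = 0.00126) and not called at 22 h (-0.07, adjusted p = 0.394). Its 22 h level was lower than its 4 h level (-0.34, limma-voom adjusted p = 1.50e-04). Mmadhc, which handles cobalamin for methylmalonyl-CoA mutase, followed the same order of calls (0.16 at 4 h, -0.02 at 22 h, and -0.18 for 22 h against 4 h, limma-voom adjusted p = 0.0214, 0.818 and 0.0151). Abat, a mitochondrial aminotransferase that also acts on a valine intermediate, was higher at both times, at 671 ± 124 CPM at 4 h, 773 ± 70.9 CPM at 22 h and 476 ± 91.7 CPM in vehicle livers (0.50 and 0.72, limma-voom adjusted p = 6.30e-04 and 2.10e-05).

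Hadh and Slc16a12 fell at both times. Hadh, a dehydrogenase of short-chain fatty acid oxidation, was lower at both times (-0.47 and -0.47, limma-voom adjusted p = 9.09e-06 and 2.18e-05). Slc16a12, a carrier of the monocarboxylate transporter family, fell to 87.2 ± 5.31 CPM at 4 h and 112 ± 18.3 CPM at 22 h, against 190.3 ± 25.8 CPM in vehicle livers (-1.12 and -0.77, limma-voom adjusted p = 3.30e-10 and 4.62e-07), and was higher at 22 h than at 4 h (0.34, adjusted p = 0.00483). Its place among the transporters rests on the chosen list, and what it carries was not examined here.

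**Figure D5:**
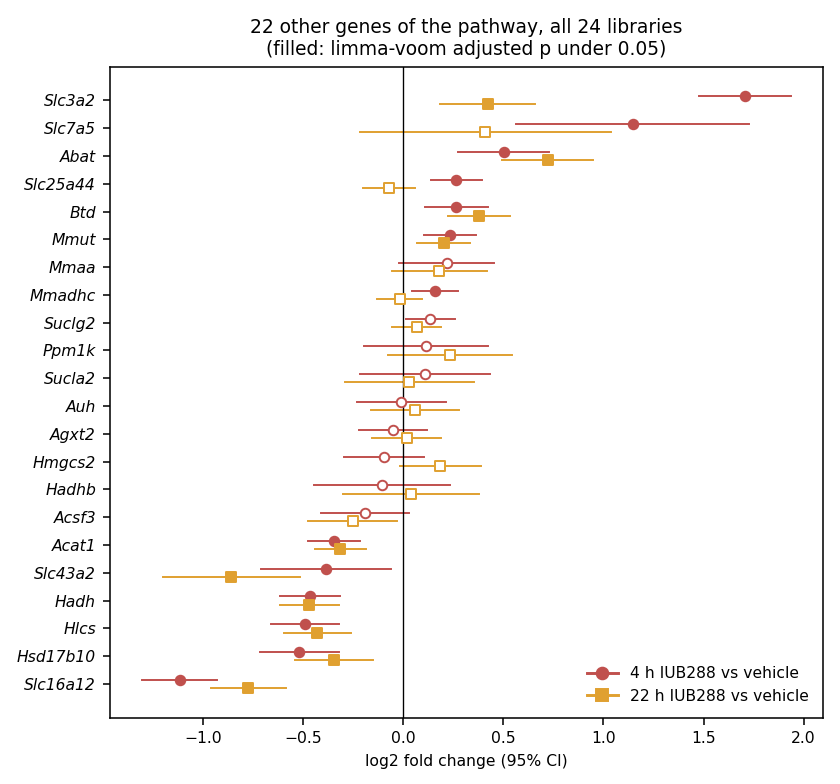
Log2 fold change with its 95% confidence interval for 22 of the 23 other genes of the pathway that were tested, at 4 h (circles) and 22 h (squares) of IUB288 against vehicle, ordered by the 4 h value; filled symbols passed the limma-voom threshold. Slc3a2 lies at 1.71 at 4 h and 0.42 at 22 h, and Slc16a12 at -1.12 and -0.77.

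Dld also serves the pyruvate and oxoglutarate dehydrogenases and the glycine cleavage system. Of 21 genes of these enzymes and their regulators 15 had a row and 14 were tested. At 4 h 5 were higher, 3 lower and 6 not called, at 22 h 3, 5 and 6, and for 22 h against 4 h 1, 3 and 10. The called shares, 57.1%, 57.1% and 28.6%, stand beside 44.2%, 36.8% and 29.3% of all genes. The median log2 fold changes were 0.15, -0.13 and -0.20. When vehicle replicate 1 was left out, 5 were higher and 3 lower at 4 h, 4 and 4 at 22 h, and 1 and 6 for 22 h against 4 h, and the medians were 0.11, -0.03 and -0.20. The called shares were then 57.1%, 57.1% and 50%, beside 44%, 36.6% and 32.1% of all genes. Gldc, the decarboxylase of glycine cleavage, was higher at both times, at 261 ± 37.4 CPM at 4 h, 303 ± 43.4 CPM at 22 h and 158 ± 29.98 CPM in vehicle livers (0.74 and 0.95, limma-voom adjusted p = 5.51e-06 and 4.16e-07). Amt, the aminomethyltransferase of the same system, was higher at 22 h than in vehicle livers (0.45, limma-voom adjusted p = 4.15e-06) and than at 4 h (0.29, adjusted p = 6.61e-04). Its log2 fold change at 4 h was 0.16 (limma-voom adjusted p = 0.0346). The call was lost when vehicle replicate 1 was left out (0.12, adjusted p = 0.0868).

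Of the 4 kinases that inhibit pyruvate dehydrogenase, Pdk1 and Pdk3 were lower than in vehicle livers at both times, Pdk4 was higher at 4 h and Pdk2 was not called against vehicle at either time. Of the phosphatase genes, the catalytic subunit Pdp2 and the regulatory subunit Pdpr were higher at 4 h, and the catalytic subunit Pdp1 was not called against vehicle at either time. Pdk2, Pdk3, Pdp1 and Pdpr are given to complete the group, after their values were seen. Pdk3, at 10 to 78 reads per library, had log2 fold changes of -0.70 and -0.94 (limma-voom adjusted p = 0.0206 and 0.00474), and Pdpr had 0.31 at 4 h (adjusted p = 0.0194). Pdk1 was lower at both times, at 94.9 ± 7.08 CPM at 4 h, 76.5 ± 10.2 CPM at 22 h and 179 ± 18.8 CPM in vehicle livers (-0.91 and -1.23, limma-voom adjusted p = 5.79e-10 and 1.54e-11), and lower at 22 h than at 4 h (-0.32, adjusted p = 0.00230). Pdk4, a kinase with the same target, averaged 99.4 ± 30.1 CPM at 4 h, 19.7 ± 10.5 CPM at 22 h and 90.3 ± 167 CPM in vehicle livers, where 1 liver, replicate 1, reached 503 CPM. Its log2 fold change at 4 h was 1.16 with all libraries and 1.75 without vehicle replicate 1 (limma-voom adjusted p = 0.0429 and 5.45e-06), and it was lower at 22 h than at 4 h (-2.40, adjusted p = 8.67e-04). Pdp2, a phosphatase of the same complex, was higher at 4 h (0.58, limma-voom adjusted p = 3.92e-05) and lower at 22 h than at 4 h (-0.43, adjusted p = 0.00186). Dlat, the transacylase core of pyruvate dehydrogenase, was lower at 4 h and at 22 h (-0.55 and -0.71, limma-voom adjusted p = 0.00322 and 4.87e-04), opposite in sign to Dbt, and by -0.37 and -0.53 without vehicle replicate 1 (adjusted p = 1.21e-05 and 1.82e-07). Ogdh, the decarboxylase of oxoglutarate dehydrogenase, chosen after its values were seen, reached 1088 CPM in vehicle replicate 1. It was not called with all libraries and was called without that one, at 0.64 and 0.56 (limma-voom adjusted p = 4.83e-11 and 1.61e-09).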

How the data were processed

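Liver mRNA of 24 mice was sequenced after preparation with the miRNeasy Mini and KAPA mRNA HyperPrep kits, per the labels' protocols. Per the submitters' processing notes, cutadapt, GSNAP and the build GRCm38 were used. Their versions, the counter, the annotation and the strand setting are not given in the sources used here. The deposited values were whole-number counts per Entrez gene. Their quoted, space-separated layout kept an automated unit check from reading them as counts, so limma-voom, the test named for that case, was used in place of a count model.

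Genes passed an expression filter over the groups (count minimum 10, total minimum 15), were normalised by a TMM routine in R 4.3.3, and were tested in limma 3.58.1 with 1 model of 3 group means (21 residual degrees of freedom), Benjamini-Hochberg over all genes and a threshold of 0.05. The fit was checked on simulated counts with known changes and no outlying library, and the pass mark for recovery was set on the largest changes. That check does not bear on calls that depend on vehicle replicate 1. The Bckdk to Ppm1k share was tested by exact two-sided permutation of livers. Each group has 8 biological replicates, and no 2 libraries of a group were copies (chi-square per degree of freedom at least 19.3). Of 21900 RefSeq protein-coding genes 11720 had a row, and 33.1% have Entrez numbers that sort after the table's last one. Transcript lengths came from GENCODE M21. Members, lists and tests were chosen with earlier results of these data known. Named besides all 9 members were the 4 genes with the smallest p per list and comparison, and Ppm1k, except 1 that is not reported here. Fits without single libraries, other scalings, filters, a replicate block and replicates 1 to 4 or 5 to 8 alone were tried as alternatives.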

Additional observations from a re-analysis of the deposited data

Results flagged for a closer look

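Of 33 groups of 8 livers tested for a liver far from the rest (9 genes, Ppm1k and the Bckdk to Ppm1k share, in 3 groups), 3 had one, and chance flags about 1 in 20. All 3 were vehicle replicate 1. It stood at 44.3 CPM for Bckdk, against 11.3 to 14.7 CPM in the other vehicle livers, at 519 CPM for Dld, against 298 to 331 CPM, and at 203 CPM for Bckdha, against 125 to 142 CPM.

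A difference between the change at 22 h and the change at 4 h passed the limma-voom threshold for 1 member, Bcat2 (log2 1.03 for 22 h against 4 h), which was lower than vehicle at 4 h and higher at 22 h. Among the other named genes, the value for 22 h against 4 h was -1.29 for Slc3a2, -0.34 for Slc25a44, -0.18 for Mmadhc and 0.34 for Slc16a12. It was -2.40 for Pdk4, -0.43 for Pdp2, -0.32 for Pdk1 and 0.29 for Amt.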

How the results depend on the processing

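Over the 3 comparisons, 918 of 945 recomputed log2 fold changes of the 9 genes kept their side of the threshold without a reversal. A reversal is a change of sign with a call in at least 1 of the 2 fits. Values called in neither fit could change sign within the 918, as Dld at 22 h did without vehicle replicate 1 (from -0.05 to 0.04). Of the rest, 9 lost a call (3 of them Bckdk at 4 h), 16 gained one (among them Bckdhb at 4 h with library totals alone) and 2 reversed. Both reversals were Bckdk at 22 h, at 0.34 in replicates 5 to 8 only and at 0.24 without vehicle replicate 1, in a range of -0.11 to 0.24 over single libraries left out. In replicates 1 to 4 only, 1 member was called at 4 h and 1 at 22 h, 8 other pathway genes at 4 h, 7 at 22 h and 2 for 22 h against 4 h, and 5, 5 and 0 of the Dld-sharing genes. Calls also fell over all 11613 genes tested in these replicates, to 2908 at 4 h, 1229 at 22 h and 1473 for 22 h against 4 h. In replicates 5 to 8 only, 9 other pathway genes were called at 4 h and 2 members for 22 h against 4 h. Of all 11547 genes tested there, 3166 and 2514 were called in these comparisons. For 22 h against 4 h, members called were 3 with library totals alone, with library quality weights and with the 16 libraries of the comparison, and 2 with the stricter filter. In the same order, the calls over all genes tested were 3267 of 11508, 3816 of 11508, 3442 of 10908 and 3120 of 9153. Other pathway genes called for 22 h against 4 h were 4 with no filter and 4 without both 22 h replicates 6 and 7, and Dld-sharing genes 7 with the 16 libraries alone. Over all genes tested, 3089 of 21049 were called with no filter and 2929 of 11782 without both livers.

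Leaving out 1 library gave 5 to 6 members called at 4 h, 4 to 5 at 22 h and 1 to 3 for 22 h against 4 h (2 without 4 h replicate 4, which adds Dbt, and 3 without vehicle replicate 1). Other pathway genes called were 13 to 14, 11 to 13 and 4 to 7 (4 without 4 h replicate 1, 22 h replicate 6 or 22 h replicate 7), and Dld-sharing genes 6 to 8, 7 to 9 and 4 to 7 (7 without vehicle replicate 1). Calls over all genes for 22 h against 4 h were 3383 of 11668 without 4 h replicate 4 and 3724 of 11614 without vehicle replicate 1. They were 3106 of 11623 without 4 h replicate 1, 3159 of 11655 without 22 h replicate 6 and 3081 of 11660 without 22 h replicate 7. The difference in log2 Bckdk over Ppm1k was -0.78 to -0.41 at 4 h, -0.34 to 0.03 at 22 h and 0.35 to 0.52 for 22 h against 4 h.

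Replicate numbers did not pair the samples: same-numbered libraries correlated at -0.22 to 0.13, 2 of 24 pairs were above 0.1, and 4 of 24 libraries correlated best with their own number. With a replicate block 5, 4 and 2 members were called, the added one being Bckdk for 22 h against 4 h. Over all 11508 genes, 5425, 4388 and 3433 were called with that block. Library totals alone moved the median of all genes at 4 h to -0.13, against -0.07. Alternatives that need tools for the count unit were not run. Of the 9 genes Bckdk had the fewest reads, 204 in its lowest library, and Pdk3 of the Dld-sharing genes had as few as 10. The causes of these changes were not tested.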
